A study of Mus musculus with 14 samples.

Results

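The angiogenin ribonuclease family was followed in the colons of mice with and without the glucocorticoid receptor (GR) in the intestinal epithelium, on water or during dextran sulfate sodium (DSS) colitis. Its members were 5 genes, Ang, Ang2, Ang4, Rnase4 and Rnase1, chosen as the genes to which the accession of a probe was matched, and they held 7 of the 41174 probes of the array and 5 of 19092 named genes. All 7 probes passed the filter on dim signals, well above background on at least 3 of 14 arrays, among 29528 probes that did. The family was selected on the log2 differences of Ang4 and Ang2, which were among the largest falls of DSS against water in GR iKO colon, so that contrast is described here without a test. In DSS colitis of Flox mice, Ang4, Ang2 and Ang were 8.22 to 20.4-fold lower than on water. The group means of this comparison share no array with the GR iKO contrast. Its SEs and array weights, however, come from a fit over all 14 arrays. Rnase4 moved little, whereas Rnase1 followed the genes of pancreatic acinar cells from array to array.

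The RNA of whole colons from 14 female C57BL/6 mice aged 4 to 6 months on normal chow was measured on 1-colour Agilent arrays, with each array given to a single mouse. In Flox mice the GR gene Nr3c1 is flanked by loxP sites, and these mice served as controls. GR iKO mice carry the same floxed alleles and a Villin-cre transgene, which is active in the intestinal epithelium from development on, so that GR is lost there and kept in the muscle, stroma and immune cells of the same colon. Mice of each genotype drank regular water (n = 4 per genotype) or water with 2.5% DSS for 7 days (n = 3 per genotype). DSS injures the colonic epithelium and causes colitis. The whole colon was measured, so that fewer cells of a type and less RNA per cell cannot be told apart.

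Angiogenins are small secreted ribonucleases of the RNase A superfamily, with catalytic histidine residues and disulfide bonds, and are named for the blood vessel growth that human angiogenin induces. Mice have several copies of the gene. Ang4 was described as a microbicidal protein of Paneth and goblet cells of the mouse gut, Ang is the ortholog of human angiogenin, and Ang2 is a close paralog of it. Rnase4 is a broadly expressed secreted ribonuclease, and Rnase1 is the pancreatic ribonuclease that digests dietary RNA. Rnh1, the ribonuclease inhibitor, binds these enzymes in the cytoplasm, and Plxnb2 and Egfr have been described as receptors of angiogenin or of related ribonucleases.

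Arrays differed in brightness, with a 75th percentile between 262 (Flox DSS replicate 4) and 1003 intensity units, and 62.6% to 71.3% of probes on an array were well above background. In Flox it was 262 to 675 on DSS and 707 to 1003 on water, and in GR iKO 493 to 713 and 740 to 963. Median spike-in intensity was 17458 to 21824 on DSS and 5849 to 9010 on water in Flox. In GR iKO these ranges were 8801 to 13736 and 6060 to 10035. Brightness and DSS thus cannot be told apart within a genotype. All 6 genes chosen as markers of colon identity, among them Cdx2 and Muc2, were well above background on all arrays of each group. Their levels were not steady, with 3 of the 6 called lower on DSS in Flox (median log2 difference −1.02) and 3 in GR iKO (median −0.88). Of all probes, 25.4% were called lower on DSS in Flox and 19.8% in GR iKO. Nr3c1 was lower in GR iKO than in Flox colon on water by 0.80 on the log2 scale (log2 difference −0.80, limma adjusted p 0.00923), and by 0.83 on DSS (log2 difference −0.83, limma adjusted p 0.0906). Slide was a batch that held several groups, whereas each group lay at 1 array position on the slides, so position and group cannot be told apart.

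The start sites of these genes are shown because 2 members with unequal responses begin at the same base. In RefSeq (GRCm38.p6), the genes of all 5 members lie on chromosome 14. Ang and Rnase4 have the same annotated start, and Ang lies inside the Rnase4 span. Rnase4 also has a second start inside that span, and Ang4 lies farther away, with 28 genes of the table starting between it and Ang. The 250 bases before each start are printed in the direction of the gene. Capitals mark TATATA, which 5.01% of 32536 such windows of mouse genes held on either strand, and AGAACA (or its reverse complement TGTTCT), the 6-base core that the glucocorticoid receptor contacts, which 16% held.
Ang and Rnase4, first start (chr14:51090827-51091076, + strand): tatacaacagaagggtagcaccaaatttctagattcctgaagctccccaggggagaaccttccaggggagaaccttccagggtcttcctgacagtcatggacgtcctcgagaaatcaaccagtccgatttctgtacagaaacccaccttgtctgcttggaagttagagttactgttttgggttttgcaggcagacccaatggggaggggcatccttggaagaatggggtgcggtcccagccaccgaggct
Rnase4, second start (chr14:51095750-51095999, + strand): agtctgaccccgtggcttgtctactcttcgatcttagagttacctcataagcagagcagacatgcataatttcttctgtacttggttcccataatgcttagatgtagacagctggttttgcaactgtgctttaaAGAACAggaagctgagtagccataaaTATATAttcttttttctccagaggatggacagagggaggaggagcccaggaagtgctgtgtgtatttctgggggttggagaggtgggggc
Ang4 (chr14:51773591-51773840, − strand): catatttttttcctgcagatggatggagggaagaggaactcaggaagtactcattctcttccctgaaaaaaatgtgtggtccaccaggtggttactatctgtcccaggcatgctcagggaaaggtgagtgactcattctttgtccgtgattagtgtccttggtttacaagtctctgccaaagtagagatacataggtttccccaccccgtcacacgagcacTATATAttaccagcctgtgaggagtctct
The window shared by Ang and Rnase4 held neither motif. The window of the second Rnase4 start held 1 of each, with TATATA 90 bases and AGAACA 116 bases before the start. The Ang4 window held TATATA 29 bases before its start and no AGAACA. The windows of Ang and Ang4 were 44.6% identical over 278 aligned columns, whereas that of Ang4 was 77.9% identical to those of Ang5 and Ang6, which are not members. The windows cover the reference only and hold no measurement of binding.

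A level is the log2 signal of a probe minus the log2 of its array's 75th percentile, and levels are not compared between probes. Ang4 in Flox colon on water was 6.77, 5.86, 5.24 and 4.08 in replicates 1 to 4. In Flox colon on DSS it was 2.56, 0.11 and 0.73 in replicates 1, 2 and 4. In GR iKO colon on water it was 6.99, 7.88, 4.24 and 5.83 in replicates 1 to 4. On DSS, GR iKO colons had −0.58, 1.20 and 1.11 in replicates 1, 3 and 4. All 6 DSS arrays lay below all 8 water arrays, and the water arrays of each genotype spanned over 2 log2 units. The mean level was highest in GR iKO on water (6.23 ± 1.57, SD, n = 4), then Flox on water (5.49 ± 1.13, SD, n = 4), Flox on DSS (1.13 ± 1.27, SD, n = 3) and GR iKO on DSS (0.58 ± 1.00, SD, n = 3). Neighbours in this order of the same treatment overlapped, and the treatments did not.

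Ang2 in Flox colon on water was 4.53, 3.85, 3.14 and 2.10, and on DSS −0.02, −1.95 and −0.53. In GR iKO colon it was 5.09, 5.94, 1.94 and 3.88 on water and −2.25, −0.89 and −0.93 on DSS. The order of the groups was that of Ang4, with means of 4.21 ± 1.73 in GR iKO and 3.41 ± 1.04 in Flox on water (SD, n = 4) and, on DSS, −0.84 ± 1.00 in Flox and −1.35 ± 0.78 in GR iKO (SD, n = 3). Ang in Flox colon was 4.43, 3.67, 3.23 and 2.30 on water and 0.35, −0.43 and 1.18 on DSS. In GR iKO colon it was 4.78, 5.56, 2.19 and 3.79 on water and −0.33, 0.09 and −0.05 on DSS. Its means were 4.08 ± 1.45 in GR iKO and 3.41 ± 0.89 in Flox on water (SD, n = 4), and those on DSS were 0.37 ± 0.80 in Flox and −0.10 ± 0.21 in GR iKO (SD, n = 3). For both genes, every DSS array lay below every water array of its genotype.

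**Figure D1:**
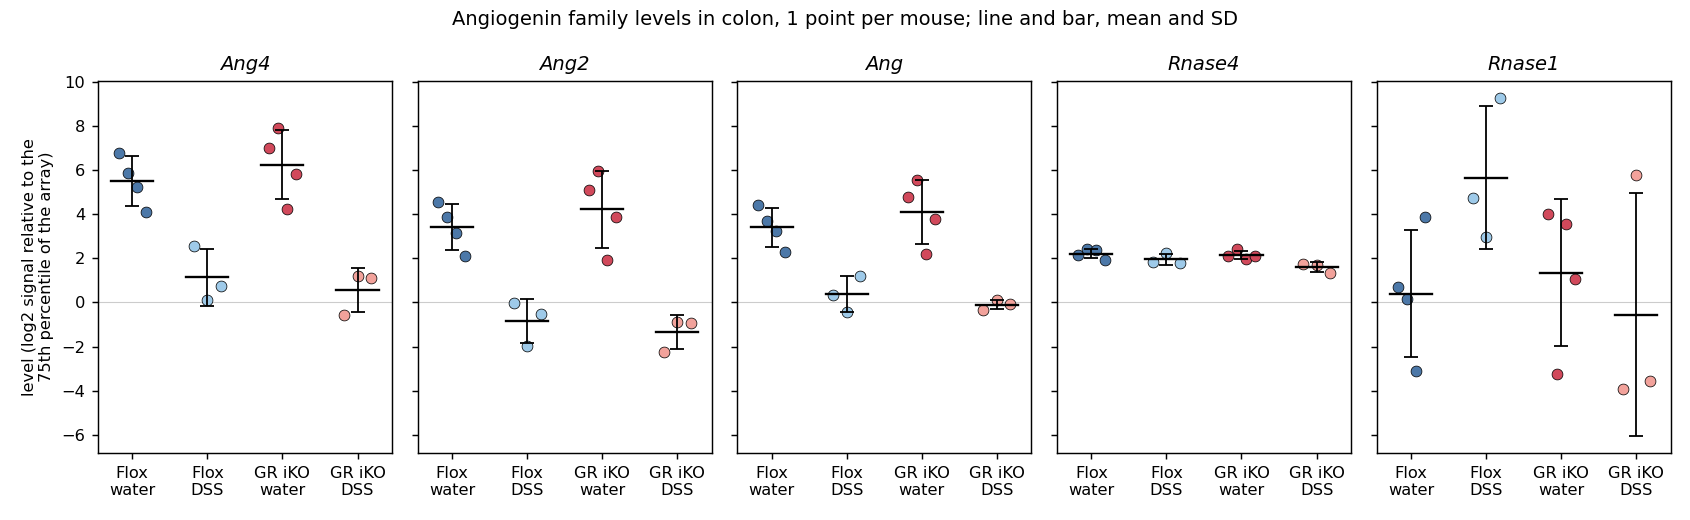
The level of each member (y axis, log2 signal minus the log2 of the 75th percentile of its array) is plotted by group, with 1 point per mouse and the mean ± SD (n = 4 on water, n = 3 on DSS). Ang4, Ang2 and Ang were lower on all DSS arrays than on all water arrays of the same genotype, Rnase4 lay between 1.32 and 2.43 on every array, and Rnase1 ranged from −3.93 to 9.26.

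In Flox colon, Ang4, Ang2 and Ang, 3 of the 5 genes, were lower on DSS at an adjusted p under 0.05. Whether their probes report separate transcripts was not tested. Of all probes tested, 47.3% were called in this comparison, 25.4% lower and 21.8% higher. That split depended on the scaling, with 86.5% of probes lower and 0.687% higher when arrays were scaled to spike-in transcripts (median of all probes −2.51), and 16.3% lower and 32.0% higher after normexp background correction. Leaving out Flox DSS replicate 1 reduced the number of called probes from 13953 to 9194. Ang4 fell by 4.35 on the log2 scale (SE 1.20, 95% interval −6.97 to −1.73, limma adjusted p 0.0105), or 20.4-fold. Ang2 fell by 4.24 (SE 1.22, 95% interval −6.90 to −1.58, limma adjusted p 0.0130), or 18.9-fold. Ang fell by 3.04 (SE 1.02, 95% interval −5.25 to −0.82, limma adjusted p 0.0271), or 8.22-fold. The groups did not overlap for any of these genes, and 31.5% of all probes had every Flox DSS array below every Flox water array. In all 3 slides with both groups the difference was negative for the 3 genes, from −5.75 to −3.35 for Ang4 and from −4.10 to −1.11 for Ang. Without Flox DSS replicate 2, none of these 3 genes was called, with adjusted p values of 0.0794 for Ang4, 0.0957 for Ang2 and 0.149 for Ang. Ang alone also lost its call without Flox DSS replicate 1 (adjusted p 0.114) and without Flox control replicate 2 (adjusted p 0.0532). When only the Flox arrays were fitted, without array weights, the same 3 genes were called, as were 53.5% of all probes. Over the 5 genes the median log2 difference was −3.04, against −0.09 over all probes.

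In GR iKO colon, where the members were noticed, Ang4 was 50.5-fold, Ang2 47.4-fold and Ang 18.1-fold lower on DSS than on water (log2 differences −5.66, −5.57 and −4.18). The values are a description, and 4 of the 5 genes, all but Rnase4, were at least 2-fold lower (the second Rnase1 probe was 1.89-fold lower), as were 8.53% of all probes. For Rnase1 the groups overlapped, and its log2 difference ranged from −5.09 to −0.23 when 1 array was left out. Every DSS array lay below every water array for Ang4, Ang2, Ang and Rnase4, and for 23.7% of all probes. The median over the 5 genes was −4.18, against −0.02 over all probes. Within slides the difference in Ang4 ranged from −7.57 to −3.05.

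The fall was unequal among the related probes. The log2 ratio of Ang to Ang2 on an array rose by 1.20 from water to DSS in Flox and by 1.39 in GR iKO, with no overlap between water and DSS arrays in either genotype. That of Ang to Ang4 rose by 1.31 in Flox, where water and DSS arrays overlapped, and by 1.48 in GR iKO, where they did not. The ratio of Ang2 to Ang4 changed by 0.11 in Flox and 0.09 in GR iKO, and overlapped in both. These ratio changes have no test, and the share of other probe pairs without overlap was not counted. On the DSS arrays of both genotypes, Ang lay between 475 and 596 intensity units and Ang2 between 150 and 424. Whether the Ang probe was near a residual signal on DSS was not tested. Probe sequences were not used here, and how much of the signal of each probe comes from the other copies was not tested.

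The probes of the same 3 genes varied together between mice, and whether they report separate transcripts was not tested. Over 14 arrays, levels of Ang2 correlated with those of Ang4 at r = 0.99 and with those of Ang at r = 0.99. After the group means were removed, r was 0.96 for Ang2 with Ang4, 0.94 for Ang2 with Ang and 0.83 for Ang with Ang4. On the 8 water arrays alone, r was 0.995 for Ang2 with Ang4, 0.999 for Ang2 with Ang and 0.997 for Ang with Ang4. These are descriptions over points that share a group structure and arrays. The spread within groups was large. Its pooled SD was 1.28 for Ang4, 1.24 for Ang2 and 1.00 for Ang, larger than in 98.6%, 98.4% and 96.6% of tested probes, whose median was 0.27. In contrast, for Rnase4 it was 0.22, and 36.5% of probes had a smaller SD.

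A further probe, A_51_P502906, whose accession is not in the gene table used and which is thus outside the rule, tracked Ang2 at r = 0.999 over the 14 arrays and was lower on DSS in Flox (log2 difference −4.17, limma adjusted p 0.0108). It is not named here.

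Rnase4, which shares its first start with Ang, moved little. In Flox colon it was 2.14, 2.41, 2.35 and 1.94 on water and 1.82, 2.24 and 1.78 on DSS. In GR iKO colon it was 2.10, 2.43, 1.98 and 2.11 on water and 1.76, 1.68 and 1.32 on DSS. The Flox groups overlapped, whereas all GR iKO DSS arrays lay below all GR iKO water arrays. The means were 2.21 ± 0.22 and 2.15 ± 0.19 in Flox and GR iKO on water (SD, n = 4), and 1.95 ± 0.26 and 1.59 ± 0.23 on DSS (SD, n = 3). In Flox the log2 difference on DSS was −0.27 (SE 0.21, 95% interval −0.72 to 0.19, limma adjusted p 0.318), and a second probe gave −0.22 (limma adjusted p 0.456). In GR iKO both probes gave −0.57. Across arrays Rnase4 and Ang correlated at r = 0.70 in level, but at 0.26 after group means were removed. From water to DSS, the log2 ratio of Rnase4 to Ang rose by 2.77 in Flox and by 3.61 in GR iKO, with no overlap in either. This ratio change has no test, and the share of other probe pairs without overlap was not counted. Ang belongs to a family selected on falls in GR iKO.

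Rnase1, the pancreatic ribonuclease, varied most. In Flox colon it was 0.68, 0.14, −3.10 and 3.89 on water and 4.71, 2.97 and 9.26 on DSS. In GR iKO colon it was 4.00, −3.24, 3.57 and 1.07 on water and −3.93, 5.78 and −3.55 on DSS. Both water groups held low and high arrays, and the highest array was Flox DSS replicate 4. Its pooled SD of 3.73 exceeded that of 99.9% of tested probes. In Flox the DSS difference was 5.24 (SE 3.04, 95% interval −1.36 to 11.8, limma adjusted p 0.176), and a second probe gave 5.42 (limma adjusted p 0.152). In GR iKO the difference was −1.92, and the second probe, which was well above background on 13 of 14 arrays, gave −0.92.

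Rnase1 moved with the other genes of pancreatic acinar cells, which secrete it. Of 11 genes listed, among them Cel (a lipase), Cpa1 (a carboxypeptidase) and Amy2a5 (an amylase), 10 were tested, and Cel ranged from −3.95 to 9.75 over the arrays. The mean level of these 10 genes and that of Rnase1 correlated at r = 0.99 over 14 arrays, also after group means were removed (0.99), and for single genes r with Rnase1 ranged from 0.79 (Cela1) to 1.00 (Cel). The log2 of their summed level ranged from 4.69 to 8.44 in Flox and 5.39 to 8.54 in GR iKO on water, and from 8.07 to 13.1 in Flox and 1.04 to 10.4 in GR iKO on DSS. No acinar gene was called in any comparison, at medians of 6.16 in Flox and −2.12 in GR iKO for DSS against water. Their part in the Rnase1 differences was not tested. For Ang4 the correlation with the acinar mean was −0.19.

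**Figure D2:**
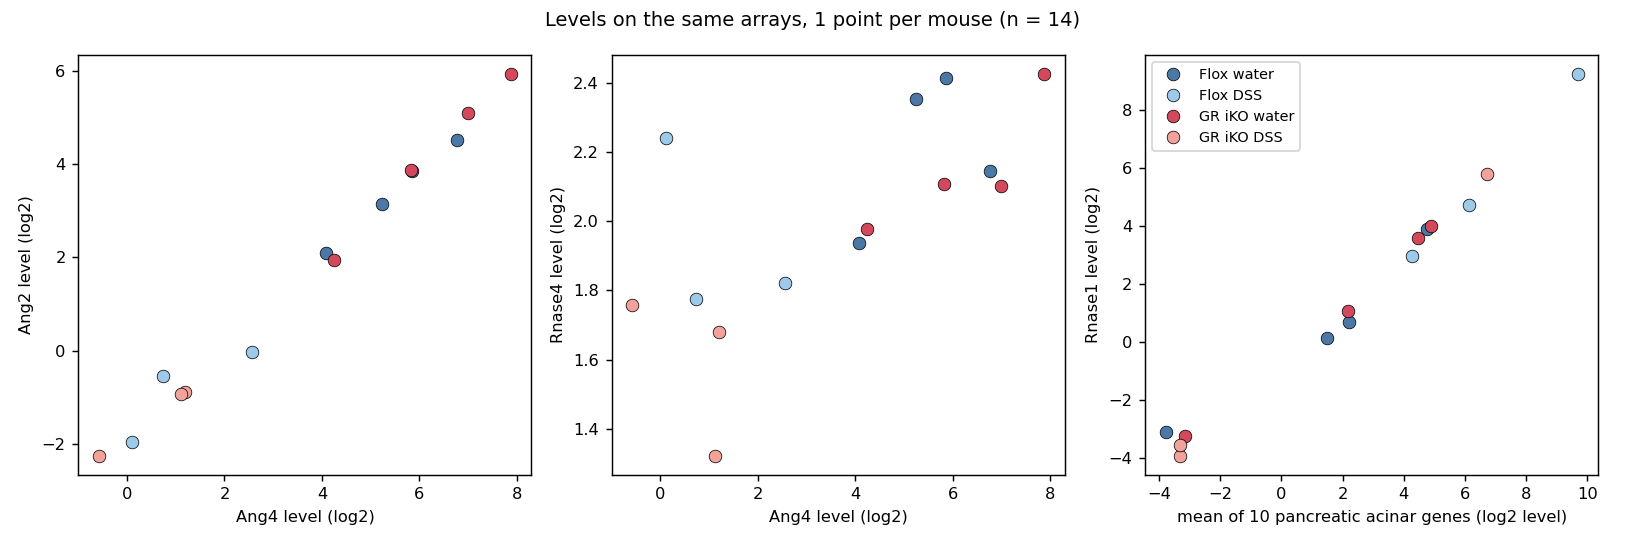
Each point is 1 of 14 mice, coloured by group. The panels plot the Ang2 level against Ang4, the Rnase4 level against Ang4, and the Rnase1 level against the mean of 10 pancreatic acinar genes (all as log2 levels). Ang2 follows Ang4 (r = 0.99) and Rnase1 follows the acinar mean (r = 0.99), whereas Rnase4 spans 1.10 log2 units in all.

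GR loss was not associated with a called difference in any member. On water, where 0.0237% of all probes were called, the 5 genes had a median log2 difference of 0.75 against −0.01 over all probes. GR iKO exceeded Flox by 0.75 in Ang4 (SE 0.72, 95% interval −0.83 to 2.32), by 0.81 in Ang2 (95% interval −0.79 to 2.41) and by 0.67 in Ang (95% interval −0.66 to 2.00), all at a limma adjusted p of 1.00. Rnase4 differed by −0.06 (95% interval −0.33 to 0.21) and Rnase1 by 0.95 (95% interval −3.02 to 4.92). Water arrays of GR iKO overlapped those of Flox for all 5 genes. The difference in Ang4 within slides ranged from −2.53 to 2.02 and was negative in 1 of 4 slides.

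On DSS, 0.0203% of all probes were called, or 6 probes, and this number depended strongly on the fit. It was 3904 with equal array weights, 4456 with a weight for each array, 8042 under scaling to spike-in transcripts, 827 without Flox DSS replicate 4, 732 without GR iKO DSS replicate 3, and 0 with slide as a block. No member was called in any of these. The differences of GR iKO against Flox were −0.56 for Ang4 (SE 1.54, 95% interval −3.91 to 2.79, limma adjusted p 0.899), −0.52 for Ang2 and −0.47 for Ang. They turned positive under scaling to spike-in transcripts, to 0.73, 0.77 and 0.82, where the median of all probes was 1.31. Rnase4 differed by −0.36 (95% interval −0.94 to 0.22, limma adjusted p 0.534), with no overlap of the 2 groups for this probe, as in 11.6% of all probes, and a gap of 0.02. Rnase1 differed by −6.21 (95% interval −14.7 to 2.24, limma adjusted p 0.445).

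The difference of the DSS response between the genotypes, GR iKO minus Flox, was −1.31 for Ang4 (95% interval −5.01 to 2.40, limma adjusted p 0.778), −1.33 for Ang2 and −1.14 for Ang. No probe of the array was called for this interaction by limma (0%), whereas 4390 probes had an unadjusted p under 0.05. Other fits called 33 probes with equal array weights, 49 without GR iKO DSS replicate 3, 2959 with a weight for each array and 15552 under scaling to spike-in transcripts, and in none of them was a member called. Under spike-in scaling the interaction was positive, at 0.20 for Ang4, 0.18 for Ang2 and 0.36 for Ang, where the median of all probes was 1.53. With the array weights used here, Rnase4 gave −0.30 (95% interval −0.94 to 0.34) and Rnase1 −7.16 (95% interval −16.5 to 2.18). Both genotype comparisons and the interaction use arrays of the contrast in which Ang4 and Ang2 were noticed.

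**Figure D3:**
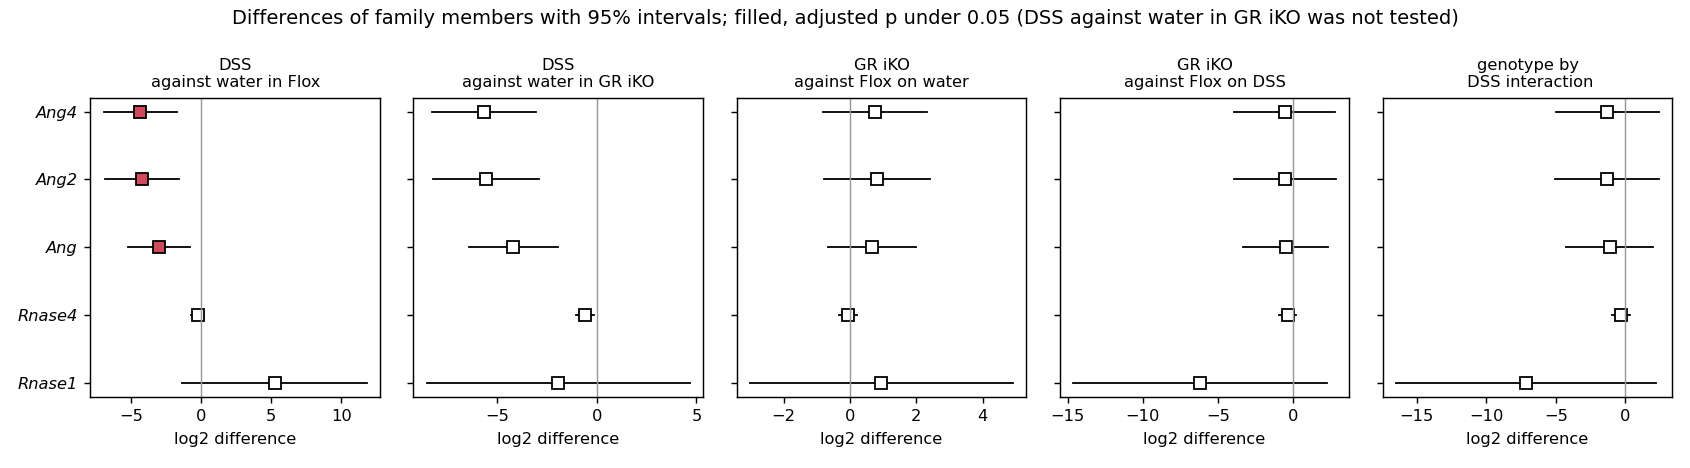
The log2 difference of each member (points) with its 95% interval (lines) is plotted for each comparison, on an x axis scaled per panel. Filled points had a limma adjusted p under 0.05, which held for Ang4, Ang2 and Ang in Flox DSS against water. DSS against water in GR iKO, the contrast on which the family was selected, was not tested. Its intervals are a description, and whether they reach 0 is not a result.

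Of the wider RNase A family, 8 of 21 listed genes were named on the array and 6 passed the filter on dim signals. Of these, 1 was called lower on DSS in Flox, Rnase6, a ribonuclease of myeloid cells (log2 difference −0.85, limma adjusted p 0.0247), and the other 5 were not called. Of all probes, 25.4% were called lower in this comparison. None of the 6 genes was called in GR iKO, where Rnase6 was at 0.01 (limma adjusted p 0.987), or between genotypes. The median over the 6 was 0.41 in Flox and −0.03 in GR iKO. Of the 3 partners, Egfr rose on DSS in Flox by 0.78 (limma adjusted p 0.00240) and in GR iKO by 1.41 (limma adjusted p 7.11e-05). Plxnb2 fell by 0.38 in Flox (limma adjusted p 0.0125) and rose by 0.33 in GR iKO (limma adjusted p 0.0285). The difference between these responses was 0.72 (limma adjusted p 0.137). Rnh1 was at 0.18 in Flox (limma adjusted p 0.378).

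The fall of the angiogenins was set beside other genes of epithelial defence and secretion. Of 15 tested antimicrobial defence genes of the gut epithelium, 6 rose and 2 fell on DSS in Flox, with a median of 0.93. Of all probes, 47.3% were called in Flox, a share near that of the list, with 21.8% higher and 25.4% lower. Not all of the listed genes encode secreted proteins. Those that rose included Nos2, an intracellular nitric oxide synthase, and the list holds the membrane protein Duoxa2. Lcn2, a siderophore-binding protein that also rose, is on the neutrophil list too. Itln1, Retnlb and Zg16 are also on the goblet cell list, and Lyz1 and Mmp7 on the Paneth cell list. In GR iKO, where 38.9% of all probes were called, 19.1% higher and 19.8% lower, 8 rose and 3 fell, with a median of 2.25. Of the 4 genes of this list with the highest signal, Mptx1, a pentraxin, fell by 5.02 in Flox (limma adjusted p 0.00158), and Pigr, the transporter of polymeric immunoglobulin, fell by 1.60 (limma adjusted p 0.000727). Zg16, a lectin of the mucus, was at −0.31 (limma adjusted p 0.668) and Lypd8, which keeps bacteria from the mucosa, at 0.12 (limma adjusted p 0.748).

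Among 14 goblet cell genes, 7 fell and none rose in Flox (median −1.72), and 3 fell in GR iKO (median −0.91). Of all probes, 25.4% were called lower on DSS in Flox and 19.8% in GR iKO, so the GR iKO count was near that share. Agr2, a protein disulfide isomerase of mucus secretion, fell by 1.57 in Flox (limma adjusted p 0.0146). Clca1 was at −0.69 (limma adjusted p 0.306) and Tff3 at −0.94 (limma adjusted p 0.172). Reg4, a marker of deep crypt secretory cells, fell by 8.18 in Flox (limma adjusted p 2.34e-05). Cd24a of the same list fell by 0.92 (limma adjusted p 0.00268). Spink4, which is also on the goblet cell list, was at −1.96 (limma adjusted p 0.0694) and Dll1 at −0.03 (limma adjusted p 0.942), and neither was called. Of the 5 tested genes of the deep crypt list 3 fell in Flox (median −1.10) and 2 in GR iKO (median −1.09). Of 12 genes of all epithelium, 5 fell and 1 rose in Flox (median −0.43), and 1 fell and 1 rose in GR iKO (median 0.03). Of all probes, 47.3% were called in Flox, near the share of this list, and 38.9% in GR iKO, above it. The log2 of the summed level of goblet cell genes ranged from 10.5 to 10.8 on water and 8.73 to 11.5 on DSS in Flox, and from 10.6 to 11.1 and 9.19 to 11.1 in GR iKO. The part of goblet or deep crypt cells in the fall of the angiogenins was not tested.

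Of 5 tested Paneth cell genes, 2 rose and 1 fell in Flox (median 0.87), and 3 rose in GR iKO (median 1.07). Paneth cells are rare in mouse colon, and other cells also express Lyz1 and Mmp7 of this list. Of 10 neutrophil genes, 8 rose in Flox (median 4.83) and 10 in GR iKO (median 7.30). Of 9 endothelial genes, 3 rose in Flox (median 0.58) and 1 in GR iKO (median 0.41), and none fell. Of all probes, 21.8% were called higher on DSS in Flox and 19.1% in GR iKO. The endothelial counts lay near these shares.

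Markers of muscle, stroma and macrophages also moved in the comparison in which the angiogenins were tested. In Flox 21.8% of all probes were called higher on DSS, and in GR iKO 19.1%. Of 8 smooth muscle genes, 7 rose on DSS in Flox (median 1.37), among them Acta2, an actin of smooth muscle, by 1.41 (limma adjusted p 0.00156). In GR iKO 1 of the 8 rose, Smtn, or smoothelin (median 0.16). The log2 of their summed level was 8.80 to 9.46 on water and 10.1 to 10.9 on DSS in Flox, without overlap, and 8.72 to 9.44 and 8.49 to 9.71 in GR iKO, with overlap. All 8 genes of fibroblasts and matrix rose in Flox (median 1.24) and 6 rose in GR iKO (median 0.85). Their summed level was 6.73 to 7.00 on water and 8.02 to 8.61 on DSS in Flox, and 6.63 to 7.14 and 7.91 to 8.20 in GR iKO. Of 10 macrophage genes, 7 rose and 1 fell in Flox (median 1.40), and 8 rose and 1 fell in GR iKO (median 1.23). Their summed level was 3.80 to 4.26 on water and 4.90 to 5.91 on DSS in Flox, and 3.66 to 4.38 and 5.20 to 5.89 in GR iKO. On DSS the summed levels of both latter lists lay above those on water in each genotype. The part of these cells, and of neutrophils and endothelium, in the fall of the angiogenins was not tested.

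**Figure D4:**
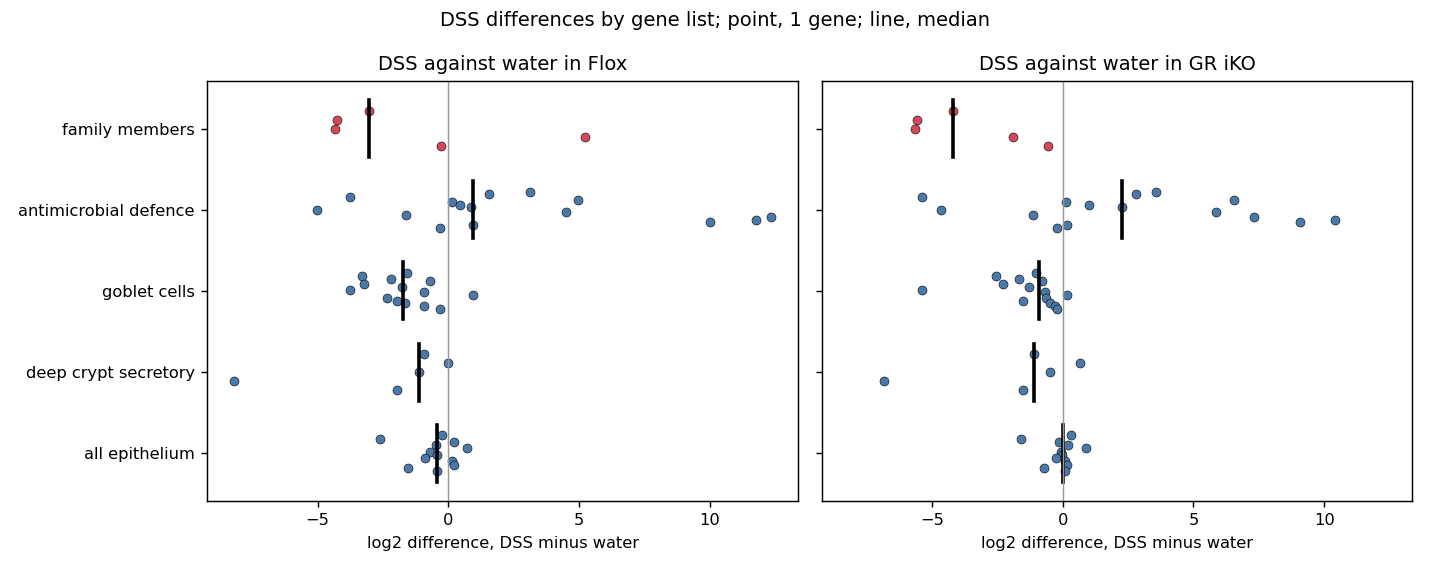
The log2 difference of DSS minus water (x axis) is plotted for each gene of 5 lists, with a line at the median, for Flox and GR iKO. The median of the 5 family members was −3.04 in Flox and −4.18 in GR iKO, against 0.93 and 2.25 for antimicrobial defence genes. The family was selected on falls in GR iKO, so its median there is a description. Some genes are on more than 1 list, and differences between the lists were not tested.

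Genes whose levels over the 14 arrays were among the most like those of each member were sought among 15457 other genes. For Ang4 they included Itln1, an intelectin of secretory epithelium (r = 0.97), Fam221a (0.94), Sybu, or syntabulin (0.94) and Spag6 (0.93), and after group means were removed r was 0.90, 0.60, 0.65 and 0.71. For Ang2 they included Itln1 (0.98), Fam221a (0.96), Airn (0.94) and Spag6 (0.94), and without group means r was 0.92, 0.72, 0.59 and 0.72. For Ang they included Itln1 (0.97), Fam221a (0.96), Rab3d, a GTPase of secretory vesicles (0.94), and Airn (0.94). Without group means these were 0.89, 0.79, 0.69 and 0.61. For Rnase4 they were Slc48a1, a heme transporter (0.95), Inhbc (0.90), Rnf113a1 (0.90), Laptm4b (0.89) and Smarce1 (0.87). Without group means these were 0.88, 0.75, 0.81, 0.72 and 0.62. For Rnase1 they were Tff2 (1.00), Pdia2 (1.00), Cel (1.00), Amy2a4 (0.99) and Cela2a (0.98), and without group means r was 0.978 to 0.998.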

How the data were processed

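Colon RNA of 14 mice (500 ng, Cy3) was measured on 14 Agilent 1-colour arrays on 4 slides. Spot intensities come from Agilent Feature Extraction 12.0.0.7, run by the authors, and the deposited intensity is background-subtracted and not scaled between arrays. The submitters' processing notes also name Partek 6.6. The deposited value table is on a log2 scale. Its normalization is not given in the sources used here. Every array of it had the same median and upper quartile, and it served as an alternative. The members and lists were chosen with earlier results of these data known.

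A total of 1639 control spots and spots flagged as non-uniform or population outliers were left out, spots of a probe were averaged, and log2 intensities were centred on each array's 75th percentile. Probes were named through RefSeq accessions without versions (28215 of 29245 matched, GRCm38.p6), and the probe with the highest mean level stood for a gene. Probes of 41174 were tested if well above background on at least 3 arrays (29528 probes). Group means were fitted with limma 3.58.1 in R 4.3.3 (lmFit, eBayes) over all 14 arrays, with 1 weight for water arrays (1.69) and 1 for DSS arrays (0.497), since arrays differed more on DSS, and p values were adjusted by Benjamini-Hochberg over all tested probes. The script was tested on simulated data. Mean signals were not used, so normexp took the median signal (offset 50). Genes named are all members, genes of the RNase A family and partner lists that were called, up to 4 genes per marker list by highest mean level, and those among the 5 genes most like each member by Pearson r, of which 1 gene is not reported here. Precision is limited by the few arrays in a group, and nothing states whether mice shared a litter or cage.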

Additional observations from a re-analysis of the deposited data

How the results depend on the processing

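Over 26 alternatives the count of called members was 3 in Flox DSS against water, except 4 under scaling to spike-in transcripts, where 87.2% of all probes were called, and leaving out 1 array gave 0 to 3. The 0 was without Flox DSS replicate 2. Ang alone was lost without Flox control replicate 2 (log2 difference −2.95, adjusted p 0.0532) and without Flox DSS replicate 1 (−3.03, adjusted p 0.114). No member was called for genotype or for the interaction in any setting. In GR iKO, 4 members were at least 2-fold lower, 5 under spike-in scaling and 3 to 4 when 1 array was left out. Spike-in scaling moved the median of all probes to −2.51 in Flox DSS against water, and there Rnase4 was called at −2.69 (adjusted p 7.94e-05). It also reversed the interaction, to 0.36 for Ang, 0.18 for Ang2, 0.20 for Ang4 and 1.20 for Rnase4 (median of all probes 1.53), and genotype on DSS, to 0.82, 0.77, 0.73 and 0.93. With 1 array left out, the Ang4 difference between genotypes on DSS ranged from −1.07 to 0.16 (without Flox DSS replicate 1), and it was 0.020 without GR iKO DSS replicate 1. Rnase4 on water gave 0.0064 as the mean of its probes and ranged from −0.15 to 0.0086 (without Flox control replicate 2), and Rnase1 on water from −0.22 (without Flox control replicate 3) to 2.48. The causes were not tested. Within each genotype same-numbered arrays shared a slide, and between genotypes only numbers 2 and 4 did. The labels do not tie the numbers to litters or days, and same-numbered arrays deviated together at r from −0.08 to 0.31, so the numbers were not taken as pairs. With the replicate number or the slide as a block, 3 members were called in Flox. The replicate block left 0 of 29528 probes called for genotype on DSS, against 6, and turned the differences there to 0.080 for Ang, 0.14 for Ang2 and 0.033 for Ang4.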
